A study of Sus scrofa with 17 samples.

Results

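Pig kidneys that received extracellular vesicles during cold machine perfusion only (G2, 6 kidneys) were compared with kidneys that received none (G1, 5 kidneys). The members are these 11 kidneys of the 17 sequenced, chosen by their labelled group. The other 6 (G3) received vesicles in both perfusions and are described here by level only. The vesicles (pUPC-EVs) came from progenitor cells grown from pig urine. G1 received the PBS vehicle in both the cold and the warm perfusion, and G2 received it in the warm perfusion. All vesicle pellets were pooled and aliquoted before use, so that every G2 kidney received the same preparation.

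All kidneys of G1 and G2 came from wild-type female Dutch Landrace pigs aged 6 months to 1 year, with 1 kidney used per animal. All had 32 min of warm ischemia, 24 h of hypothermic machine perfusion (HMP) and 5 h of normothermic machine perfusion (NMP) with autologous blood cells. The biopsy was taken at the end of NMP, so that G2 kidneys were sampled after the rest of HMP and the whole of NMP had followed their only vesicle dose. The kidneys were perfused outside the body and not transplanted, the G1 kidneys underwent the same ischemia and perfusions as G2, and no unperfused kidney is among these samples. The comparison asks which transcripts still differed at that time. Since biopsies are bulk tissue, fewer cells of a type and less RNA per cell cannot be told apart.

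Warm ischemia deprives tubular cells of oxygen and ATP, and the return of oxygen at body temperature brings oxidative stress, unfolded proteins and innate immune activation. Heat shock chaperones refold damaged proteins, heme oxygenase breaks down heme, and resident macrophages and endothelium sense damaged cells through receptors such as TLR2 and CD14. Vesicles can carry RNA and protein into recipient cells, and endothelium is the first tissue that a perfused vesicle meets.

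Total counts were 20104093 to 21269002 per kidney in G1 and 20677418 to 22905729 in G2 (two-sided exact permutation test, p = 0.0368). Between 18813 and 20891 genes had a count, and G2 kidneys 3 and 6 had the fewest (18926 and 18813). In these 2 kidneys mitochondrially encoded transcripts took 14.4% and 17.7% of the counts, against 10.6% to 14.0% in G1 and 10.8% to 12.9% in the other 4 kidneys of G2, and several results are also given without them. Markers of the proximal tubule were abundant in both groups, with a summed level of 16907 to 24479 CPM (counts scaled to the library total) in G1 and 16941 to 34024 CPM in G2. Red cell markers summed to at most 5.49 CPM in any of the 11 kidneys. The authors' codes for the samples fall into 3 runs of consecutive numbers, called series A, B and C here, whose meaning is not stated. Series A holds 2 kidneys of G1 and 2 of G2, series B holds 2 of G1 only, and series C holds 1 of G1 and 4 of G2.

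No transcript differed between G2 and G1 after adjustment for all genes tested. The gene with the smallest p was HSPA6, an inducible HSP70 chaperone, which was lower in G2, and the leading genes on the higher side included INHBB, TLR2, FKBP5, CD14 and HMOX1. Of 25699 genes, 0 (0%) had an adjusted p under 0.05 by edgeR's quasi-likelihood test with Benjamini-Hochberg adjustment, and the smallest adjusted p was 0.840. At an unadjusted p under 0.05 there were 901 genes (3.51% of those tested), of which 364 were higher in G2 (1.42%) and 537 lower (2.09%). Among the 13741 genes with a mean of at least 1 CPM the split was the other way, with 223 higher and 169 lower of 392. With a fold change over 1.5 as well, the criterion of the study's methods, there were 677 genes (2.63%), 222 higher and 455 lower. DESeq2 called 1 gene, HSPA6, limma voom called 0, and edgeR with a term for the code series called 2, INHBB and SH3TC2. The p-values below 0.05 formed the least filled of 20 equal bins, with 901 genes where the other bins held 1050 to 2022.

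**Figure D1:**
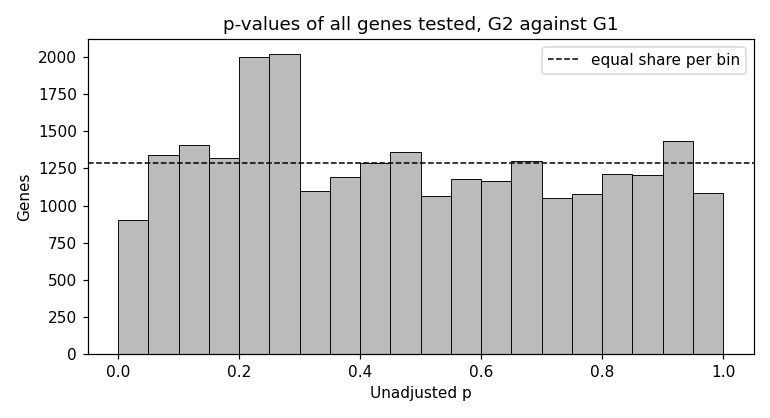
Number of genes (vertical axis) in each of 20 bins of the unadjusted p of G2 against G1 (horizontal axis), with a dashed line at an equal share per bin. The bin nearest 0 holds 901 genes and lies below the line.

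Beside each gene named hereafter stands its log2 fold change by edgeR and the two-sided exact permutation p of its difference in mean log2 CPM between the 5 and 6 kidneys, which cannot go below 0.00216 and is not adjusted. Most of these genes were chosen for a small p by edgeR, so that this second p is a description. A p under 0.05 in the counts of list members is edgeR's, unadjusted, and such counts stand beside the 1.42% of all genes tested that were higher and the 2.09% that were lower.

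The intervals of the fold changes were widest for rare transcripts, but the design limited abundant ones too. HMOX1, INHBB and HSPA6 differed by 1.94-, 1.97- and 1.80-fold and had an adjusted p of 0.840 by edgeR. The intervals counted here are for 1 gene at a time and are not adjusted for the number of genes tested. Among 13741 genes with a mean of at least 1 CPM, the median standard error of the log2 fold change was 0.183, and for 12072 of them (87.9%) the 95% interval lay within a 2-fold difference either way. For 8111 (59.0%) it lay within 1.5-fold. Among the 11958 rarer genes the median standard error was 1.02, and the interval was within 2-fold for 212 (1.77%). The median log2 fold change was -0.01 over all genes and 0.02 over those of at least 1 CPM. The groups did not overlap for 16 of the 13741 genes with every G2 kidney above every G1 kidney (0.116%), and for 12 with every G2 kidney below (0.0873%).

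Over the whole profile the group explained 10.6% of the squared distances between kidneys on the 500 most variable genes (one-sided exact permutation test over 462 splits, p = 0.331). G2 kidneys 1, 2, 4 and 5 were nearer to the kidneys of G1 than to those of their own group, whereas G2 kidneys 3 and 6 and all 5 kidneys of G1 were nearer to their own. In log2 CPM, a kidney's mean distance to the average of its group's other kidneys was 40.5 in G2 and 33.9 in G1. The difference was 6.61 (two-sided exact permutation test, p = 0.145).

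The heat shock genes were led by HSPA6 (ENSSSCG00000047932, chr4:88970592-88973109 in Sscrofa11.1). It was counted at 935, 1039, 1146, 684 and 981 CPM in G1 kidneys 1 to 5, and at 442 to 723 CPM in G2 with a median of 506. Of 6 G2 kidneys, 5 lay below every G1 kidney, and the groups met only through G2 kidney 6 (723 CPM) and G1 kidney 4 (684 CPM). The level was 1.8-fold lower in G2, a log2 fold change of -0.85 with a standard error of 0.165 (95% interval -1.20 to -0.50, unadjusted p = 8.33e-05 and adjusted p = 0.840 by edgeR, exact permutation p = 0.00649). The difference in mean log2 CPM was -0.93 within series A and -0.89 within series C, and the log2 fold change was -0.97 without G2 kidneys 3 and 6. DESeq2 gave an adjusted p of 0.00893, the range over all alternatives was 0.00893 to 0.998, and with any 1 kidney left out edgeR gave 0.420 to 0.976. HSP70 genes share long stretches of sequence, and how reads that fit several genes were counted is not given in the sources used here.

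The groups overlapped in all 16 measured heat shock genes, HSPA6 included. Of the 16, 1 had a p under 0.05, HSPA6 itself (beside 2.09% of all genes lower), while 13 had a negative and 3 a positive log2 fold change. The median of -0.16 was -0.21 to -0.04 with any 1 kidney left out, nearest to 0 without G1 kidney 3, and -0.01 with a term for the code series. HSPH1, a disaggregating co-chaperone of HSP70, was at 786, 1415, 1880, 1425 and 1040 CPM in G1 and at 774 to 1340 CPM in G2 (median 1121), within or just under the range of G1 (log2 fold change -0.25, 95% interval -0.70 to 0.20, exact permutation p = 0.383). DNAJB1, an HSP40 that feeds clients to HSP70, differed by -0.18 (95% interval -0.69 to 0.33) and BAG3, a nucleotide exchange factor for HSP70, by -0.25 (95% interval -0.72 to 0.22). For these 3 genes the difference was negative in series A (-0.26 to -0.40) and positive in series C (0.20 to 0.39), which has 1 kidney of G1 and holds G2 kidneys 3 and 6. Without G2 kidneys 3 and 6 the log2 fold changes of HSPH1, DNAJB1 and BAG3 were -0.41, -0.48 and -0.44. With any 1 kidney left out they were -0.39 to -0.09, -0.30 to 0.028 and -0.35 to -0.028. PPP1R15A is a regulatory subunit that directs a phosphatase to eIF2 alpha in the integrated stress response. It had 245 to 457 CPM in G2 with 5 of 6 kidneys under all G1 kidneys (346 to 466 CPM, log2 fold change -0.35, exact permutation p = 0.0476). It was the 1 member of 16 in the list of unfolded protein and integrated stress response genes with a p under 0.05 (beside 2.09% of all genes lower).

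HMOX1, the inducible enzyme that degrades heme, was on the opposite side. It was at 233, 101, 156, 246 and 227 CPM in G1 and at 222 to 537 CPM in G2 with a median of 372. In G2, 4 kidneys lay above all of G1, while kidneys 1 and 2 lay within its range. The level was 1.94-fold higher (log2 fold change 0.96, standard error 0.257, exact permutation p = 0.0260, adjusted p = 0.840 by edgeR), and the difference was 0.60 in series A and 0.96 in series C. The same list of NRF2 targets and antioxidant genes had 15 measured members, of which only HMOX1 had a p under 0.05 (beside 1.42% of all genes higher), and its median log2 fold change was 0.11. Catalase (CAT), which removes hydrogen peroxide, was at 1288 to 3136 CPM in G1 and 1402 to 4393 CPM in G2, and its log2 fold change of 0.25 (exact permutation p = 0.517) became -0.13 without G2 kidneys 3 and 6. Of 15 glutathione genes, GSTA4, which conjugates lipid peroxidation products, was the 1 with a p under 0.05 (beside 2.09% of all genes lower). It was at 14.7, 11, 15, 3.48 and 11.3 CPM in G1 and 3.03 to 13.3 CPM in G2 (log2 fold change -0.91, exact permutation p = 0.0909), so that the groups overlapped through G1 kidney 4 and G2 kidney 4.

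**Figure D2:**
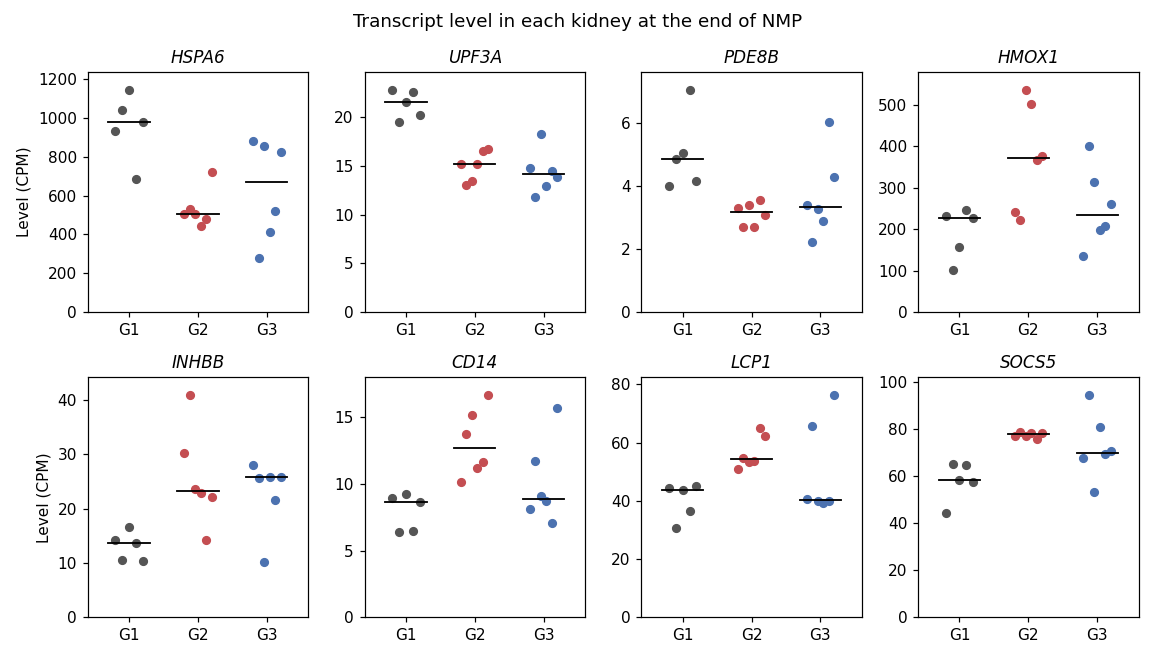
Level in CPM (vertical axis, from 0) of 8 genes in each kidney of G1, G2 and G3, with a bar at the median of the group. HSPA6, UPF3A and PDE8B lie lower in G2 than in G1 and the other 5 genes higher, and the G1 and G2 kidneys do not overlap for UPF3A, PDE8B, CD14, LCP1 and SOCS5.

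The leading genes on the higher side held CD14, TLR2 and LCP1, which were chosen by their p and not as a list. CD14 (ENSSSCG00000014369, chr2:142348036-142349686), the co-receptor that hands lipopolysaccharide to toll-like receptors, was at 8.92, 6.39, 9.26, 6.51 and 8.68 CPM in G1 and at 10.2 to 16.7 CPM in G2 (median 12.7). Every G2 kidney lay above every G1 kidney, with a fold of 1.65 (log2 fold change 0.72, standard error 0.178, exact permutation p = 0.00433). TLR2 (chr8:75416257-75428370), which recognises bacterial lipoproteins and products of damaged cells, was at 16.0, 9.26, 14.6, 12.9 and 18.1 CPM in G1 and 17.9 to 28.9 CPM in G2 (median 24.3). Here 5 G2 kidneys lay above all of G1 (log2 fold change 0.73, standard error 0.175, exact permutation p = 0.00649). LCP1, an actin bundling protein of leukocytes, was at 44.2, 30.7, 43.8, 36.4 and 45.2 CPM in G1 and 51.1 to 65.0 CPM in G2, without overlap (log2 fold change 0.50, standard error 0.131, exact permutation p = 0.00216). All 3 were higher in both series (0.37 to 0.81) and without G2 kidneys 3 and 6 (0.48 to 0.70).

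Other macrophage markers lay on both sides. Of 9 macrophage and monocyte markers measured, 1 had a p under 0.05 (beside 1.42% of all genes higher), CD14, which was already named for its p, with 5 positive and 4 negative values and a median of 0.28. That median was -0.00088 without G2 kidney 5, 0.0065 without G2 kidney 4 and 0.77 without G1 kidney 3. CSF1R, the receptor that maintains macrophages, was at 9.54 to 24.1 CPM in G1 and 10.8 to 24.5 CPM in G2 (log2 fold change 0.49, exact permutation p = 0.104). CD68, a lysosomal protein of phagocytes, was at 64.7 to 82.7 CPM in G1 and 44.1 to 121 CPM in G2 (log2 fold change -0.01, 95% interval -0.44 to 0.43). The summed level of the list had a median of 119.6 CPM in G1 and 125.8 CPM in G2, and was at most 136 CPM in G1 and 172 CPM in G2. Neutrophil markers summed to 6.16 to 13.4 CPM in G1 and 4.99 to 15.2 CPM in G2, and T and NK cell markers to 17.6 to 51.9 CPM and 26.9 to 44.5 CPM. Whether the content of blood cells contributed to the differences in CD14, TLR2 and LCP1 was not tested.

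Complement genes lay on the higher side throughout. All 14 members measured had a positive log2 fold change (0.14 at the lowest) with a median of 0.45. Of the 14, 5 had a p under 0.05, all higher in G2, beside 1.42% of all genes tested. They were C1QA and C1QB, chains of the recognition molecule C1q, C1R and C1S, its proteases, and CFB, the factor of the alternative pathway. All 5 had an exact permutation p above 0.05. C1QA was higher by 0.54 (exact permutation p = 0.0996) and CFB by 0.59 (exact permutation p = 0.0931). C1S was at 51.8, 59.7, 98.5, 74.7 and 63.8 CPM in G1 and 68.4 to 137 CPM in G2 (median 98.0), with 3 kidneys above all of G1 (log2 fold change 0.49, standard error 0.191, exact permutation p = 0.0584), and it was higher by 0.28 without G2 kidneys 3 and 6. C1R, its neighbour on chromosome 5, was at 97.7 to 175 CPM in G1 and 119 to 243 CPM in G2 (0.45, exact permutation p = 0.0606). C1QB was at 15.2 to 36.4 CPM in G1 and 26.6 to 41.7 CPM in G2 (0.46, exact permutation p = 0.0584), and C1QC, which just missed an unadjusted p of 0.05, was higher by 0.44 (exact permutation p = 0.106). All of these groups overlapped, and none of the 14 members had an adjusted p under 0.05. Without G2 kidneys 3 and 6 the median of the list was 0.30, and it was 0.30 to 0.49 over all alternative settings and 0.33 to 0.60 with any 1 kidney left out. The 14 values come from the same kidneys and are not 14 independent measurements. Markers of macrophages, which make C1q, had a median of 0.28 (-0.00088 to 0.77 with any 1 kidney left out) and markers of stroma, whose fibroblasts can make C1r and C1s, a median of 0.31 (0.20 to 0.39), and their part in the complement values was not tested.

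Genes of the stroma lay mostly on the higher side. Of 13 markers of fibroblasts and smooth muscle, 12 had a positive log2 fold change, the median was 0.31 and 2 were higher at a p under 0.05, beside 1.42% of all genes tested. PDGFRA, the receptor that marks fibroblasts, was at 61.5, 65.5, 63.8, 75.9 and 104 CPM in G1 and at 74.5 to 151 CPM in G2 (0.42, exact permutation p = 0.0628), yet the difference was 0.94 in series A and -0.27 in series C. COL3A1, a fibrillar collagen, was at 75.1, 76.4, 172, 116 and 84.5 CPM in G1 and at 69.6 to 250 CPM in G2 (0.64, exact permutation p = 0.0931). Without G2 kidneys 3 and 6 the median of the list was 0.10.

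Outside that list, COL6A3, a chain of the microfibrillar collagen VI, ranked among the leading genes. It was at 59.1 to 68.9 CPM in G1 and 65.4 to 123 CPM in G2 with a median of 95.6, and 5 G2 kidneys exceeded all of G1 (0.56, standard error 0.150, exact permutation p = 0.0152). MMP2, a gelatinase, was at 37.8, 35.7, 51.6, 38.4 and 26.2 CPM in G1 and 43.1 to 89.9 CPM in G2 (0.69, standard error 0.195, exact permutation p = 0.0152). Vimentin (VIM), an intermediate filament of mesenchymal and injured tubular cells, was at 272 to 496 CPM in G1 and 283 to 640 CPM in G2, where kidney 2 lay within the range of G1 and the other 5 above it (0.52, exact permutation p = 0.0736). It was the 1 member of 17 tubular injury genes with a p under 0.05 (beside 1.42% of all genes higher), and the median of these 17 was 0.04.

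INHBB stood first among the genes higher in G2. It encodes the beta B subunit of activin and inhibin, ligands of the TGF beta family (ENSSSCG00000038610, chr15:30999994-31004405). It was at 14.1, 10.6, 16.5, 13.7 and 10.3 CPM in G1 and at 14.2 to 40.9 CPM in G2 (median 23.3). In G2, 5 kidneys lay above all of G1 and kidney 5 (14.2 CPM) within it. The level was 1.97-fold higher (log2 fold change 0.97, standard error 0.222, exact permutation p = 0.00649, adjusted p = 0.840 by edgeR). In a fit with a term for the code series the log2 fold change was 1.29 with an adjusted p of 0.0245, and without G2 kidneys 3 and 6 it was 1.05.

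Other genes of the TGF beta and matrix list lay on both sides. Of 23 members, INHBB and COL3A1 were higher and TWIST1 and CCN2 lower at a p under 0.05, beside 1.42% and 2.09% of all genes tested, with a median of 0.12. TWIST1, a transcription factor of mesenchymal transition, was at 2.55, 1.90, 3.52, 2.61 and 3.35 CPM in G1 and 0.930 to 2.58 CPM in G2 (median 1.54), where 5 kidneys lay below all of G1 (log2 fold change -0.83, standard error 0.293, exact permutation p = 0.0130). CCN2, a matrix protein induced by TGF beta and stretch, was at 282, 252, 204, 199 and 222 CPM in G1 and 129 to 217 CPM in G2 (-0.37, exact permutation p = 0.0260, and -0.24 without G2 kidneys 3 and 6). The negative difference held in series A and C for both genes.

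**Figure D3:**
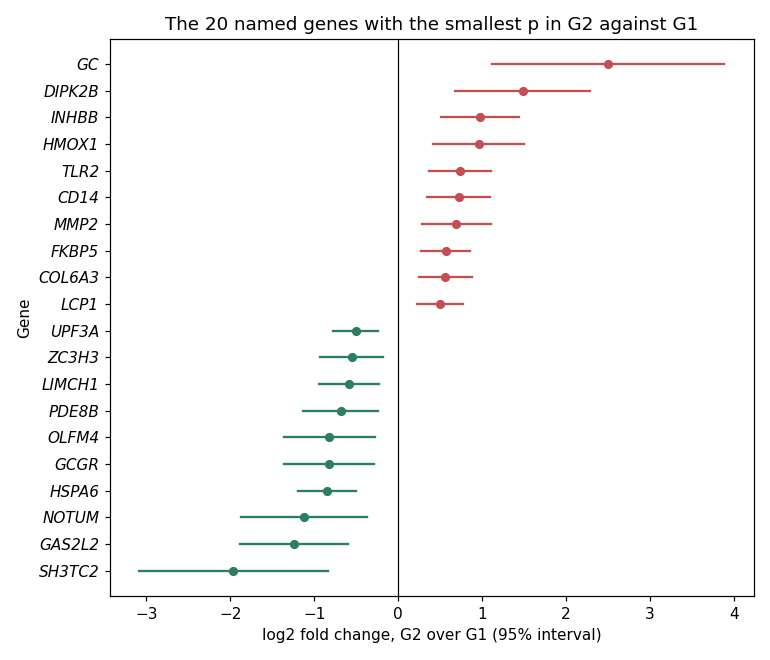
Log2 fold change of G2 over G1 (horizontal axis) with its 95% interval for the 10 genes higher and the 10 lower in G2 with the smallest p among genes of at least 1 CPM with a symbol. The intervals were chosen by p and therefore exclude 0, and all 20 genes have an adjusted p of 0.840.

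The remaining leading genes had varied functions. Among those lower in G2, UPF3A, a factor of nonsense-mediated mRNA decay (chr11:79117708-79137083), was at 22.8, 19.5, 21.5, 22.5 and 20.2 CPM in G1 and 13.1 to 16.7 CPM in G2, without overlap (log2 fold change -0.51, standard error 0.125, exact permutation p = 0.00216). PDE8B, a cAMP phosphodiesterase, was at 4.00 to 7.07 CPM in G1 and 2.7 to 3.58 CPM in G2, also without overlap (-0.69, exact permutation p = 0.00216). GCGR, the glucagon receptor, was at 8.61 to 23.8 CPM in G1 and 4.66 to 9.53 CPM in G2 (-0.82, exact permutation p = 0.00433). These were higher in every G1 kidney than in most G2 kidneys, and GCGR overlapped through G2 kidney 3 only. LIMCH1, an activator of non-muscle myosin (-0.59), ZC3H3, a factor of mRNA export (-0.55), GAS2L2, a linker of actin and microtubules (-1.24), OLFM4, a secreted glycoprotein (-0.82), and NOTUM, an extracellular Wnt inactivator (-1.12), had overlapping groups and exact permutation p of 0.0173 to 0.0519. SH3TC2 (-1.96, exact permutation p = 0.0887) rested on G1 kidneys 1 and 5, at 26.3 and 23.3 CPM, where the other 3 kidneys of G1 had 1.93 to 6.2 CPM and G2 had 1.76 to 5.17 CPM. In the edgeR fit with a term for the code series the log2 fold change of SH3TC2 was -2.56 with an adjusted p of 0.0161, and in every other alternative the adjusted p was above 0.05.

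On the higher side, FKBP5, a co-chaperone induced by glucocorticoids, was at 38.8, 43.6, 54.0, 40.4 and 40.7 CPM in G1 and 51.1 to 82.2 CPM in G2 (median 61.7), where kidney 4 alone lay within the range of G1 (0.57, standard error 0.139, exact permutation p = 0.00649). It was the 1 member of 10 glucocorticoid response genes with a p under 0.05 (beside 1.42% of all genes higher), and the median of the 10 was 0.0048 (-0.11 to 0.07 with any 1 kidney left out). DIPK2B, a kinase-like protein, was at 0.972 to 1.67 CPM in G1 and 1.21 to 6.61 CPM in G2 (1.48, standard error 0.383, exact permutation p = 0.0260), with 5 kidneys above all of G1. GC, the vitamin D binding protein, was at 0.351, 0.370, 0.869, 0.410 and 1.32 CPM in G1 and 0.996 to 12.2 CPM in G2. Its log2 fold change of 2.50 (exact permutation p = 0.0325) was 1.24 without G2 kidneys 3 (4.38 CPM) and 6 (12.2 CPM). Among identifiers without a symbol, ENSSSCG00000002501 was higher in G2 without overlap (0.564 to 1.98 CPM in G1 and 2.19 to 3.85 CPM in G2, log2 fold change 1.33, exact permutation p = 0.00216). ENSSSCG00000020439 was higher by 1.12 (exact permutation p = 0.0238), and ENSSSCG00000057525 and ENSSSCG00000059624 were lower, by -1.05 (exact permutation p = 0.0455) and -1.89 (exact permutation p = 0.0216).

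Genes of endothelium lay mostly on the higher side with small values. Of 18 markers, 17 had a positive log2 fold change, the median was 0.22 (0.29 without G2 kidneys 3 and 6), and 1 had a p under 0.05 (beside 1.42% of all genes higher), EHD3, an endocytic protein of glomerular endothelium (0.62, exact permutation p = 0.147). PECAM1, the junctional molecule CD31, was at 93.6, 93.3, 93.8, 88.9 and 98.3 CPM in G1 and at 64.7 to 169 CPM in G2 (median 130), so that 4 G2 kidneys lay above and 1 below the narrow range of G1 (0.40, 95% interval -0.01 to 0.82, exact permutation p = 0.175). SOX7, an endothelial transcription factor that the study named from its RNA-seq, was at 25.2, 18.4, 18.4, 20.5 and 19.1 CPM in G1 and 16.0 to 43.1 CPM in G2 (0.40, 95% interval -0.03 to 0.84, exact permutation p = 0.195). For SOX7 3 G2 kidneys lay above and 1 below all of G1, with a difference of 0.77 in series A and 0.15 in series C. P-selectin (SELP), which captures leukocytes and platelets, was at 15.4 to 34.1 CPM in G1 and 11.9 to 81.9 CPM in G2 (0.83, exact permutation p = 0.262), and its difference was 1.60 in series A and -0.40 in series C.

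Inflammatory mediators lay on both sides, with 16 positive and 8 negative values. Of 24 measured, 3 had a p under 0.05 (TLR2, SOCS5 and SELP, all higher, beside 1.42% of all genes tested) and the median was 0.12. That median was 0.04 to 0.17 with any 1 kidney left out and -0.03 to 0.12 over all alternative settings. SOCS5, a suppressor of cytokine signaling (chr3:93777402-93925859), was at 44.3, 64.9, 58.2, 64.6 and 57.3 CPM in G1 and at 75.6 to 78.7 CPM in G2 with a median of 77.6. The groups did not overlap, and the 6 kidneys of G2 lay within a span narrower than the gap to G1 (log2 fold change 0.42, standard error 0.119, exact permutation p = 0.00216, adjusted p = 0.840 by edgeR). The SD of log2 CPM was 0.022 in G2 and 0.223 in G1. The chemokine CXCL2, abundant in all kidneys, was at 4161 to 5585 CPM in G1 and 2933 to 5672 CPM in G2 (-0.15, 95% interval -0.57 to 0.27).

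Interferon-stimulated genes had a median above 0 with all kidneys of G2 and below 0 without kidneys 3 and 6. Of 52 measured, 3 had a p under 0.05 (BST2, ISG15 and IFITM1), all higher, beside 1.42% of all genes tested, and the median was 0.18, but without G2 kidneys 3 and 6 it was -0.12. IFITM1, which blocks viral entry, was at 39.3 to 47.9 CPM in G1 and at 40.9, 46.2, 92.4, 42.6, 45.7 and 96.9 CPM in G2 kidneys 1 to 6. Its log2 fold change of 0.51 (exact permutation p = 0.223) was 0.03 without kidneys 3 and 6, which alone lay above G1. BST2 (tetherin), which holds budding virions and vesicles at the membrane, was at 1.76, 4.49, 2.80, 2.51 and 2.38 CPM in G1 and 2.81 to 9.55 CPM in G2 (1.1, standard error 0.321, exact permutation p = 0.0260), and it was higher by 0.68 without those 2 kidneys. ISG15, a ubiquitin-like modifier, was at 206, 152, 269, 340 and 244 CPM in G1 and 206 to 583 CPM in G2 (0.55, exact permutation p = 0.130), and 0.22 without them. RSAD2, an antiviral radical SAM enzyme, was at 15.3 to 81.8 CPM in G1 and 27.0 to 250 CPM in G2 (0.98, exact permutation p = 0.351), and -0.18 without them. USP18, which removes ISG15 from proteins, was higher by 0.70 (exact permutation p = 0.154), and by 0.83 without those kidneys. UBA7, which activates ISG15, was lower by -0.66 (exact permutation p = 0.0693, and -0.42 without those kidneys) with 1.97 to 4.62 CPM in G2 and 3.23 to 7.66 CPM in G1.

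**Figure D4:**
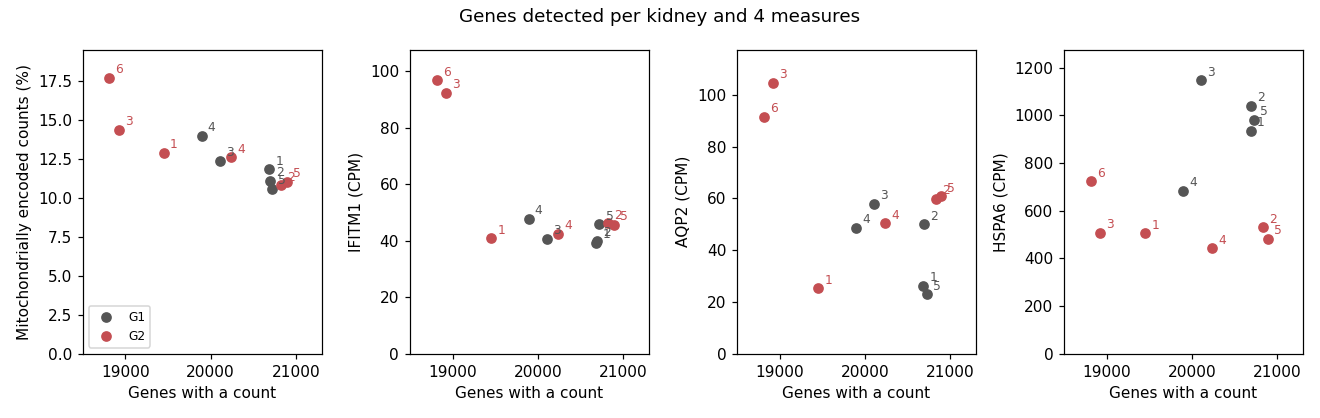
Share of counts on mitochondrially encoded genes and levels of IFITM1, AQP2 and HSPA6 (vertical axes, from 0) against the number of genes with a count (horizontal axis) in each kidney of G1 and G2, numbered within its group. G2 kidneys 3 and 6, at the left, have the highest IFITM1 and AQP2, and HSPA6 lies below every G1 kidney in 5 of the 6 G2 kidneys.

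Most lists of energy metabolism had small positive medians that lay near or below 0 without G2 kidneys 3 and 6. No member of 4 lists had a p under 0.05: 35 nuclear genes of the respiratory chain (34 positive, median 0.11), 16 of glycolysis (15 positive, 0.19), 18 of fatty acid oxidation (17 positive, 0.17) and 6 of gluconeogenesis (6 positive, 0.19). Without G2 kidneys 3 and 6 the medians were -0.08, 0.05, -0.0027 and -0.03. COX7B, a subunit of cytochrome c oxidase, was at 229, 264, 184, 199 and 155 CPM in G1 and 149 to 331 CPM in G2 (0.17, 95% interval -0.24 to 0.58). The 13 mitochondrially encoded genes had a median of 0.29 with 0 members under a p of 0.05, and 0.0040 without those kidneys. The 11 genes of mitochondrial biogenesis had a median of -0.03, with 8 negative values and 1 member, SIRT3, lower at a p under 0.05 (beside 2.09% of all genes). SIRT3, the mitochondrial deacetylase, was at 14.3, 20.8, 16.2, 17.3 and 15.9 CPM in G1 and 9.0 to 18.1 CPM in G2, where 5 kidneys lay below all of G1 (-0.41, exact permutation p = 0.0433), and it differed by -0.62 without kidneys 3 and 6.

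The medians of nephron segment markers differed in sign between segments, with few members at a p under 0.05. None of 17 proximal tubule genes had a p under 0.05 (median 0.14, and -0.02 without G2 kidneys 3 and 6). Of 7 principal cell genes all had a positive value (median 0.51, 0.18 without them, and 0.24 to 0.64 with any 1 kidney left out) and AQP2, the vasopressin-regulated water channel, had a p under 0.05 (beside 1.42% of all genes higher). AQP2 was at 26.4, 50.0, 57.9, 48.7 and 23.0 CPM in G1 and 25.3 to 105 CPM in G2 (0.67, exact permutation p = 0.141), and 0.25 without kidneys 3 and 6, which had 105 and 91.4 CPM. SYNPO, the actin-associated protein of podocytes, was at 67.3 to 79.6 CPM in G1 and 61.3 to 107.7 CPM in G2, with 5 kidneys above G1 and kidney 5 below it (0.35, exact permutation p = 0.0498). It was the 1 member of 7 podocyte markers with a p under 0.05 (beside 1.42% of all genes higher). Of these markers 6 had a positive and 1 a negative value, with a median of 0.17 (0.03 to 0.28 with any 1 kidney left out). Of 8 distal convoluted tubule genes 6 had a negative value (median -0.21, and -0.36 without kidneys 3 and 6). This median was -0.28 to -0.07 with any 1 kidney left out and -0.36 to -0.12 over all alternative settings. In that list TRPM7, a magnesium channel, had a p under 0.05 (beside 2.09% of all genes lower). The other members ranged from -0.52 (KLHL3) to 0.22 (TRPM6), with SLC12A3 at -0.01 and CALB1 at -0.11. Hypoxia response genes were balanced, with 11 of 22 positive, a median of 0.01 and 0 with a p under 0.05.

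**Figure D5:**
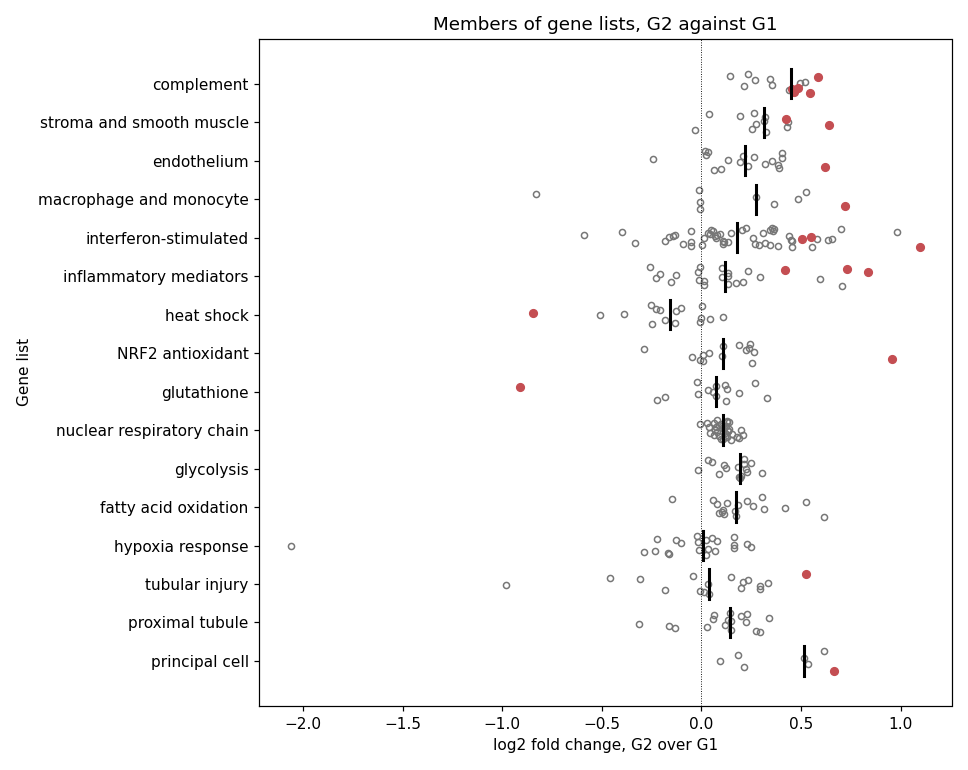
Log2 fold change of G2 over G1 (horizontal axis) of each measured member of 16 gene lists (rows), filled where the unadjusted p is under 0.05, with a bar at the median of the list. Complement members all lie above 0, the heat shock members lie mostly below, and the median over all genes is -0.01.

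The targets of the study's qRT-PCR were also looked up in these counts. Of the 8 described here, ISG15 and SOCS5 had a p under 0.05 (both higher, beside 1.42% of all genes tested) and the median was 0.15. HIF1A, the oxygen-sensing transcription factor, differed by 0.16 (95% interval -0.12 to 0.45), NR1H3, the liver X receptor alpha, by 0.14 (-0.12 to 0.40), and PCNA, the replication clamp, by -0.01 (-0.32 to 0.30). EIF2AK2, the kinase activated by double-stranded RNA, differed by -0.09 (-0.46 to 0.28). SUMO2, a small protein modifier, differed by 0.09 (-0.19 to 0.36), with a sign that became negative under scaling by library size alone. FOXP3, the factor of regulatory T cells, was at 0.219 to 0.811 CPM in G2 and 0.290 to 0.463 CPM in G1, too low for a narrow interval (0.39, -0.51 to 1.29). For the 5 of these targets without a p under 0.05 other than FOXP3, the interval lay within 1.5-fold either way.

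The study's 40 leading genes of G3 against G1 were chosen on kidneys that include these 5 of G1, so that their values in G2 are not independent of that choice. Of 40, 8 were higher and 5 lower in G2 at a p under 0.05, beside 1.42% and 2.09% of all genes tested, with 22 positive and 18 negative values and a median of 0.06. The 40 include genes higher and genes lower in G3, so this median does not measure a shared direction. In the study's list the same 8 were higher and the same 5 lower in G3. Both comparisons use the same G1 kidneys, so a shared direction is partly built in. Side by side, INHBB had a median of 13.7 CPM in G1, 23.3 in G2 and 25.7 in G3, and UPF3A 21.5, 15.1 and 14.2 CPM. BST2 had medians of 2.51, 5.66 and 12.1 CPM, and EIF2AK2 85.6, 74.2 and 121 CPM. HSPA6 ranged from 280 to 882 CPM in G3 (median 671), across the levels of both other groups. CD14 was at 7.06 to 15.7 CPM in G3 with a median of 8.88, HMOX1 at 136 to 401 CPM with a median of 234, and LCP1 at 39.2 to 76.4 CPM with a median of 40.3.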

How the data were processed

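Biopsies of 17 kidneys were sequenced with a stranded mRNA kit, and the 11 of G1 and G2 were compared. The authors trimmed reads with cutadapt 4.0 and aligned them with STAR to Sscrofa11.1, and they deposited raw counts per gene. The counting program and its strand setting are not given in the sources used here. The deposited table of the authors' own comparison of G3 with G1 holds fold changes and p-values, and only its gene symbols were used. Counts (26560 genes, of which 25699 had any count in the 11 kidneys compared) were tested in R 4.3.3 with edgeR 4.0.16 (quasi-likelihood, TMM, two-sided, Benjamini-Hochberg). No covariate was used. CPM are counts relative to TMM-scaled library totals, and intervals are at 95%. Symbols were known for 15107 genes. Positions are RefSeq's for Sscrofa11.1.

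Named genes were the 10 higher and 10 lower in G2 with the smallest p among genes of at least 1 CPM with a symbol, 2 each way without one, genes the study names, its qRT-PCR targets (1 of them is not reported here), members of gene lists, and the 5 genes of at least 10 CPM most variable in G2. The lists and the samples compared were chosen with earlier results of these data known, so list counts and medians are descriptions without a test. Alternatives were DESeq2 1.42.0, limma 3.58.1 voom, other scaling and filters, equal depth, a term for the code series, a block by kidney number, and leaving out each kidney. Scripts were tested on simulated data. To look for libraries deposited more than once, kidneys of a group were compared in pairs, and none of 25 pairs agreed within counting error (chi-square per degree of freedom 21.4 to 152.7).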

Additional observations from a re-analysis of the deposited data

Results flagged for a closer look

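Among 168 sets of values (log2 CPM of named genes, and measures of the kidneys, in G1 or G2) a search was made for 1 kidney apart from the others of its group, and 11 were found. About 8.4 would be found in normally distributed sets not picked from the data. Many of these genes were picked by p or by their spread in G2, so 8.4 is not a chance expectation for them. The number given for each is the gap to the nearest kidney divided by the range of the group. In G2 the kidney apart was kidney 6 for HSPA6 (0.629, the highest at 723 CPM), kidney 4 for GCGR (0.687, the lowest at 4.66 CPM), kidney 5 for SYNPO (0.731, the lowest at 61.3 CPM), and kidney 2 for COL3A1 (0.636, the lowest at 69.6 CPM), VIM (0.7104, the lowest at 283 CPM) and SAMD11 (0.644, the lowest at 1.78 CPM). In G1 it was kidney 4 for SAL1 (0.773, at 0.0512 CPM), GSTA4 (0.784, at 3.48 CPM) and SLC16A6 (0.855, at 11.2 CPM), kidney 1 for ATP8 (0.957, at 0.527 CPM) and kidney 2 for THBS4 (0.7499, the highest at 74.5 CPM).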

How the results depend on the processing

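The number of kidneys and the spread within the groups limit what can be seen, and most genes under 1 CPM are beyond reach. The count at an adjusted p under 0.05 was 0 by edgeR and in every alternative except DESeq2 with and without independent filtering (1, HSPA6) and the code series as covariate (2, INHBB and SH3TC2), and 0 with any 1 kidney left out. The count at an unadjusted p was 426 with filterByExpr and 387 when each kidney had to have 10 counts, where fewer genes were tested, and 661 to 1215 with 1 kidney left out. With a fold change over 1.5 it was 376 by DESeq2 in both forms, 192 with filterByExpr, 141 with the minimum of 10 counts and 506 to 848 with 1 kidney left out. Scaling by library size alone moved the median of all genes to -0.09 and the split from 364 higher and 537 lower to 200 and 686. The split was 419 and 421 when G2 kidneys 3 and 6 were left out, an alternative chosen after seeing the data.

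Kidney numbers did not pair the samples: deviations of same-numbered kidneys correlated at -0.15 to 0.18. With a block for the number there were 0 adjusted calls, 623 genes at an unadjusted p under 0.05 and 355 with a fold change over 1.5, and the log2 fold change of CD68 was 0.018. The share of distances explained by group was 8.68% to 15.1% with 1 kidney left out (p = 0.151 to 0.786, exact permutation).

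Signs turned, with the cause not tested, for genes whose 95% interval includes 0: ACSM5 (-0.35 by voom), SUMO2 (-0.00931) by library size, PCNA (0.040), ATP8 (0.065), THBS4 (-3.23) and CD68 (0.16) with the code series, and SUMO2 (-0.022), CD68 (0.23), RSAD2 (-0.18) and CAT (-0.13) without G2 kidneys 3 and 6. With 1 kidney left out PCNA was -0.078 to 0.068, SAL1 -3.43 to 0.29, ATP8 -0.53 to 0.11, DNAJB1 -0.30 to 0.028, CD68 -0.22 to 0.094 and EIF2AK2 -0.24 to 0.065.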

Other observations

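The 5 genes with the largest SD of log2 CPM within G2, among genes with a symbol and a mean of at least 10 CPM, were close to absent in some kidneys of G2 and abundant in others. ATP8, SAL1, THBS4 and ACSM5, but not FUT2, were so in G1 as well. ATP8, a mitochondrially encoded subunit of ATP synthase, was at 0.527 CPM in G1 kidney 1, 4.82 CPM in G2 kidney 2 and 1.70 CPM in G2 kidney 3, and at 681 to 1227 CPM in the other 8 kidneys. SAL1, a salivary lipocalin that binds pheromones, was at 29.7 to 142 CPM in 4 kidneys of G1 and at 31.2 and 337 CPM in G2 kidneys 1 and 6, and at most 0.365 CPM in the rest of these 11. FUT2, a fucosyltransferase that makes blood group antigens, was at 9.62 to 25.6 CPM in all of G1 and 0.155 to 17.1 CPM in G2, where kidneys 2, 3 and 5 were at 0.243, 0.155 and 0.226 CPM (log2 fold change -1.31, exact permutation p = 0.0887). THBS4, a matrix glycoprotein, was at 74.5 CPM in G1 kidney 2 and at most 0.724 CPM in the other 4 of G1, and at 32.4 to 73.5 CPM in 4 kidneys of G2. ACSM5, a mitochondrial acyl-CoA synthetase, was at 23.4 to 30.3 CPM in 3 kidneys of G1 and at 20.4 to 41.4 CPM in 4 of G2, and under 1 CPM in the other 4 of these 11.

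Members of other lists with an unadjusted p under 0.05 by edgeR were lower for MLKL, the executor of necroptosis (log2 fold change -0.74, exact permutation p = 0.0519, and -0.40 without G2 kidneys 3 and 6), NR4A1, an immediate early nuclear receptor (-0.39, exact permutation p = 0.0714), and TRPM7, a magnesium channel (-0.32, exact permutation p = 0.0649, and -0.19 without those kidneys). BHLHE41, a repressor of the circadian clock, was higher by 0.50 (exact permutation p = 0.169). They were the 1 member with such a p among 19 cell death, 21 immediate early, 8 distal convoluted tubule and 19 circadian clock genes, beside 2.09% of all genes tested lower and 1.42% higher. The 20 genes of vesicle formation had a median of 0.05 with BST2 as the 1 such member, and the 19 of vesicle uptake had a median of 0.13 with 0.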
